A study of Mus musculus with 17 samples.

Results

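The 10 genes described here encode the kinases of the DNA damage and replication checkpoints, their closest partners, and p53 with its main inhibitors: Atm, Atr, Atrip, Chek1, Chek2, Wee1, Trp53, Mdm2, Mdm4 and Clspn (claspin). They were taken by symbol, as 10 of the 21848 genes in the feature tables. Each was followed in GC B cells of mouse lymph nodes by summing its unique molecular identifiers (UMIs, counts of single captured RNA molecules) over the cells of each mouse. The time course held 39 mice in 2 experiments, 25 in the larger and 14 in the smaller. Recipients were wild-type CD45.1 mice primed with ovalbumin (OVA), given NP-specific B1-8hi B cells that partly lacked DEC-205 (Ly75-/-), and immunized with NP-OVA. By the study's description, the GC B cells profiled in the time course were the DEC-205-bearing ones. At 7 days post-immunization (dpi, 0 h, n = 9) some were treated with anti-DEC-OVA, an antibody to DEC-205 carrying OVA, which increases the OVA that DEC-205-bearing B cells show to T follicular helper cells and drives inertial cycling, the run of divisions without renewed selection. Untreated mice were taken at 48 h (9 dpi, n = 6) and 72 h (10 dpi, n = 8), and mice given anti-DEC-OVA at the same 2 times (n = 9 and n = 7). The study kept only cells with the B1-8 antibody pairing, whereas the main tests here used cells with or without it. At 48 h the pairing was found in a mean of 55.3% of cells per untreated mouse and 66.9% per treated mouse. All mice were adults of either sex on the C57BL/6 background.

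A separate set of 7 anti-DEC-OVA-treated mice, taken at 72 h, held B1-8hi B cells with the Rosa26 DHB-tdTomato reporter, some also with H2B-GFP. The reporter leaves the nucleus when CDK2 is active, and image-based sorting split the GC B cells of each mouse into a population with cytoplasmic reporter (CDK2-high) and one with nuclear reporter (CDK2-low). Each population formed 1 library, so the population and the library cannot be told apart. Because the sort itself selects on cell-cycle state, the comparison is between cells in different parts of the cycle. The study limited it to cells with the expression pattern of the GC dark zone, and also reports that treated cells gathered in that zone. No limit by zone was set here, in the reporter set or in the time course. The groups compared may therefore also differ in their shares of dark and light zone cells. The part of zone in the results was not tested.

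Stalled replication forks and DNA ends are read by related kinases. ATR, held at single-stranded DNA by ATRIP, works through claspin to activate CHK1, while ATM answers double-strand breaks and activates CHK2. WEE1 phosphorylates and restrains CDK1 and CDK2. ATM, ATR, CHK1 and CHK2 act to stabilize p53, which MDM2 degrades and MDMX, the product of Mdm4, restrains. GC B cells divide fast while the enzyme AID damages their own DNA, and their defining repressor BCL6 is known to hold down several of these genes.

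Totals ran from 1984426 to 13373185 UMIs per mouse in the time course, from 292 to 1045 cells, and from 3988733 to 20394909 UMIs per mouse and population in the reporter set, from 278 to 1679 cells. The 10 members were read from between 26 UMIs (Atrip) and 6391 UMIs (Clspn) per mouse. All 10 GC B cell markers averaged above 1 CPM (a gene's UMIs per 1000000 UMIs of the mouse) in every group. Of 9 T cell markers listed, 7 were among the genes counted. At 48 h these T cell markers summed to 7.41 to 12.5 CPM in untreated and 1.17 to 5.44 CPM in treated mice. Naive or memory B cell markers summed to 62.3 to 136 CPM and 34.5 to 72.8 CPM in the same order. Plasma cell markers summed to 1090 to 1826 CPM in untreated and 1510 to 2346 CPM in treated mice at 48 h. GC B cell markers at 48 h summed to 4321 to 4671 CPM untreated and 3774 to 4035 CPM treated in the larger experiment, and to 3752 to 3880 and 3109 to 3392 CPM in the smaller one. The median UMIs per cell at 48 h ran from 5030 to 7455 in untreated and from 10004 to 14467 in treated mice. The part of these differences in the results below was not tested. In the reporter set the sums did not overlap between CDK2-high and CDK2-low samples for naive or memory B cell markers (26.9 to 40.7 against 56.3 to 171 CPM), for myeloid markers (4.23 to 7.21 against 8.37 to 30.3 CPM) and for GC B cell markers (3286 to 3517 against 3943 to 4279 CPM), and their part in the results was not tested. T cell markers summed to 0.183 to 1.74 CPM in CDK2-high and 0.485 to 57.6 CPM in CDK2-low samples, the highest being replicate 6, and without that mouse the same number of members, 7, passed between the populations. Fewer cells of a type and less RNA per cell cannot be told apart in such sums. Median UMIs per cell ran from 8939 to 11754 in CDK2-high and from 10563 to 14838 in CDK2-low samples. Median mitochondrial shares were 2.97% to 3.42% and 3.35% to 3.88%. Both were lower in the CDK2-high cells of every mouse, and their part in the results was not tested.

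In GRCm39, 4 members lie on chromosome 9, where Atm spans 53348097 to 53448236, Atr 95739650 to 95835263, Atrip 108887001 to 108903228 and Chek1 36614487 to 36638361. Atrip shares its strand with the overlapping Trex1, so its counts are uncertain, and Trp53 (chromosome 11, 69469669 to 69482701) overlaps Wrap53 on the opposite strand. Chek2 lies on chromosome 5 (110987826 to 111022011), Wee1 on 7 (109721148 to 109747101), Mdm2 on 10 (117524780 to 117546730), Mdm4 on 1 (132887222 to 132958299) and Clspn on 4 (126450728 to 126489576).

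Promoter sequence is shown because Clspn and Chek1 were both higher at 48 h after treatment and in CDK2-high cells, as given below. RefSeq windows on GRCm38.p6, 250 bases before to 50 after a transcription start, matched 9 of the 10 members in 10 windows, the other being Wee1. They were searched on both strands for the E2F core (the letters TTCGCGC, the variant TTGGCGC or the variant TTCCCGC), for the CHR element TTTGAA and for the CCAAT box, letters that do not contain one another. An E2F core lay in 4 of the 10 member windows, against 8.07% of all 32851 windows. A CCAAT box lay in 6 of 10, against 37.4%, and TTTGAA in 0 of 10, against 17.9%, which says only that these letters are not in these windows. The 4 E2F cores are given with their surroundings on the gene's strand, the core in capitals and read here as its opposite strand. They are at bases 22 to 28 after the start for Clspn (chr4:126556990-126557018), 44 to 50 after it for Chek1 (chr9:36726609-36726626), 16 to 22 after it for Atm (chr9:53536639-53536667), and starting at base -152 for Chek2 (chr5:110839820-110839848).
Clspn: accgcgtctggGCGCGAAagctcgaactt
Chek1: agcaggttttgGCGGGAA
Atm: tagagccggaaGCGGGAAggcgtgcgtac
Chek2: cgggattagccGCGGGAAaccaagacgtc

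For the 3 members that were higher at 48 h after treatment, the 80 bases before the start are given with CCAAT boxes, again read from the opposite strand, in capitals. Clspn (chr4:126556900-126556979, plus strand) held 2 of them, Chek1 (chr9:36726659-36726738, minus strand) held 0 and Trp53 (chr11:69580279-69580358, plus strand) held 1.
Clspn: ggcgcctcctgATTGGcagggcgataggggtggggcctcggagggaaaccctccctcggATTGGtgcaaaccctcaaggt
Chek1: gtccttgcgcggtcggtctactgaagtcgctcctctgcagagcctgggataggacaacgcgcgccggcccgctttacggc
Trp53: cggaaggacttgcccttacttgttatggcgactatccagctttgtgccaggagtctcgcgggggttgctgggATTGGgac

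During inertial cycling, at 48 h, the claspin and CHK1 transcripts rose with treatment, while most other members stayed short of the threshold. Of the 10 members, 3 passed the test at 48 h as higher with anti-DEC-OVA than without it, and 0 as lower. The background was large: 47.4% of the 10220 genes tested passed the same threshold (edgeR quasi-likelihood test, adjusted p below 0.05), 26.3% of them higher and 21.1% lower, so 3 of 10 is close to the share of all genes that were higher. The median log2 fold change was 0.12 over the members and 0.01 over all genes tested.

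Clspn, which bridges ATR and CHK1, showed the largest change of the 10. Untreated mice at 48 h ranged from 152 to 219 CPM with a median of 156 CPM, and treated mice from 201 to 267 CPM with a median of 226 CPM. Levels were higher in the smaller experiment in both groups, and the groups overlapped only across experiments. Its log2 fold change was 0.53 ± 0.083 (SE) with an adjusted p of 1.6e-06 from edgeR. Chek1, the kinase claspin delivers to ATR, had levels of 25.5 to 42.1 CPM in untreated mice (median 29.6) and 33.0 to 45.4 CPM in treated mice (median 36.7), a log2 fold change of 0.39 ± 0.081 (SE) with an adjusted p of 0.00013 in edgeR. These groups, too, overlapped only across experiments.

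Over both experiments the groups overlapped at 48 h for all 10 members, where 8.42% of all genes tested did not overlap. Within the larger experiment 3 of 10 did not overlap, Clspn and Chek1 higher and Mdm4 lower in treated mice, against 28.5% of all genes. Within the smaller experiment, with 3 treated and 2 untreated mice, 9 of 10 did not overlap, against 56.3% of all genes. Clspn, Chek1, Chek2 and Trp53 were higher and Atm, Atr, Wee1, Mdm2 and Mdm4 lower in treated mice. Overlap was read in CPM, without the TMM factors used by the test. On the TMM scale, over both experiments, the log2 fold changes of Atm (0.02) and Wee1 (0.09) were above 0. Those of Atr (-0.12), Mdm2 (-0.03) and Mdm4 (-0.08) were below 0, and none of these passed. Fitted within each experiment, the log2 fold change of Clspn was 0.54 (adjusted p = 0.00039, edgeR) in the larger and 0.42 (adjusted p = 0.0073, edgeR) in the smaller one. That of Chek1 was 0.39 (adjusted p = 0.0037) and 0.31 (adjusted p = 0.030).

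Trp53, the gene of p53 itself, was the third member higher at 48 h, and its call was the least stable. Its levels ran from 154 to 216 CPM (median 187) in untreated and from 175 to 218 CPM (median 201) in treated mice, a log2 fold change of 0.16 ± 0.050 (SE) with an adjusted p of 0.0072 in edgeR. In the larger experiment alone the log2 fold change was 0.07 (adjusted p = 0.34), against 0.24 (adjusted p = 0.035) in the smaller one. Scaling by total UMIs in place of TMM factors gave 0.08 (adjusted p = 0.12), and cells with the B1-8 antibody pairing alone gave 0.09 (adjusted p = 0.18). In a fit with no term for the experiment Trp53 did not pass, while Clspn and Chek1 did.

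The upstream kinases and the p53 inhibitors did not pass the threshold at 48 h. The log2 fold changes, treated against untreated, were 0.02 for Atm (adjusted p = 0.82, edgeR) and -0.12 for Atr (adjusted p = 0.26), the kinases that start the response. They were 0.15 for Atrip (adjusted p = 0.14), 0.16 for Chek2 (adjusted p = 0.13) and 0.09 for Wee1 (adjusted p = 0.26). Mdm2, the ubiquitin ligase of p53, was at -0.03 (adjusted p = 0.69) and Mdm4 at -0.08 (adjusted p = 0.11), and Mdm4 passed under several other settings, with -0.15 (adjusted p = 0.0024) when scaled by total UMIs.

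**Figure D1:**
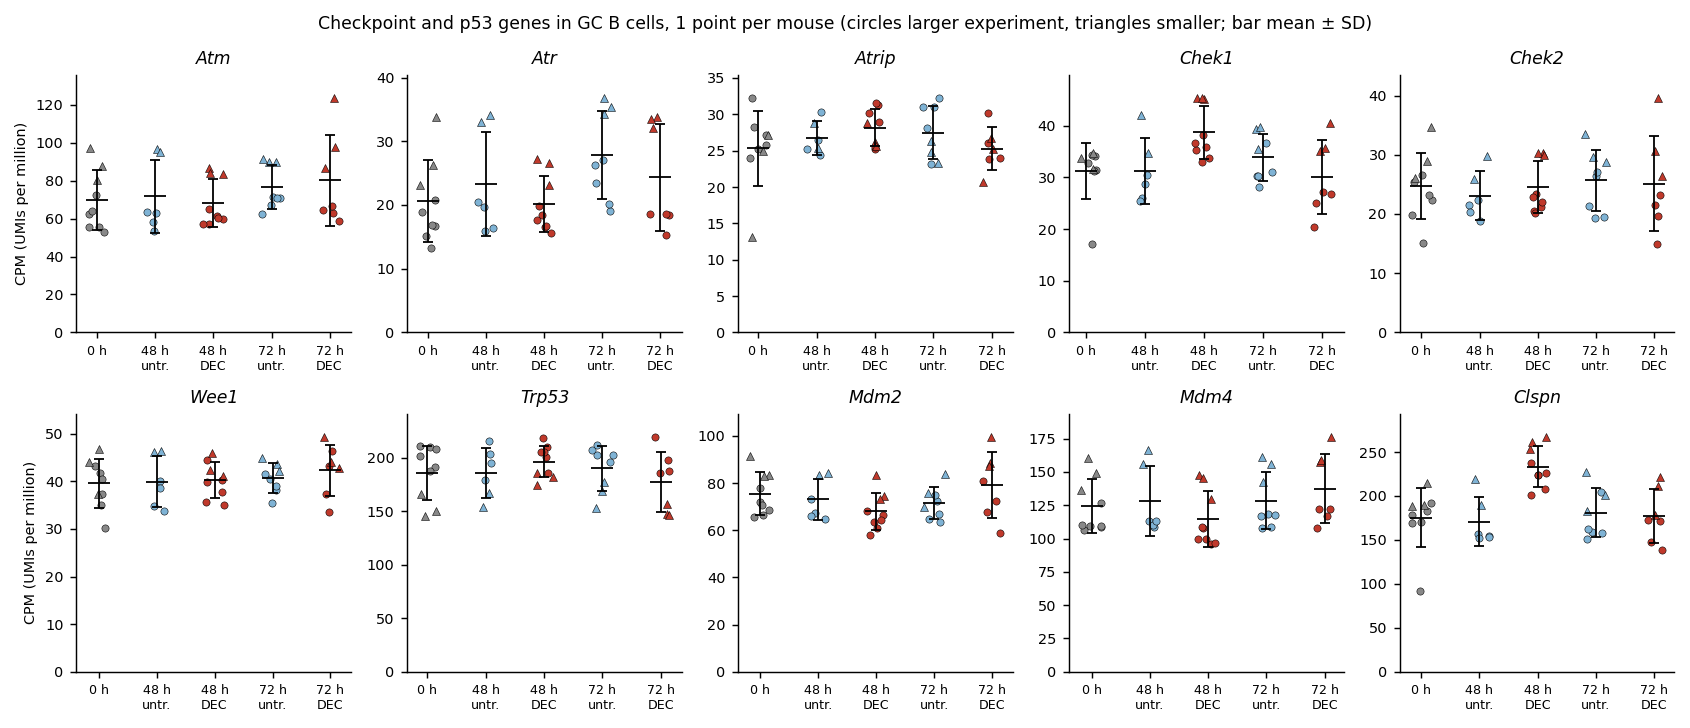
CPM of each of the 10 members in each mouse of the time course, 1 panel per gene, with 1 point per mouse (circles larger, triangles smaller experiment), bars for mean and SD, and the 5 groups on the x axis. Clspn and Chek1 have their highest group means in treated mice at 48 h, 234 and 38.8 CPM, while the means of Wee1 run from 39.6 to 42.4 CPM over the groups.

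At 72 h, treated and untreated mice differed in 0 of 10 members by the edgeR test (adjusted p below 0.05), where 8.55% of all genes were called. DESeq2 called 0 as well, and 3 had an unadjusted edgeR p below 0.05, Atr, Chek1 and Mdm2. Clspn had a median of 173 CPM in untreated and 172 CPM in treated mice, with ranges of 151 to 228 CPM and 139 to 222 CPM. The members nearest the threshold were Atr, with a log2 fold change of -0.25 (adjusted p = 0.075), and Chek1, with -0.23 (adjusted p = 0.11).

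The treatment effect was compared directly between the times by an interaction term. It was larger at 48 h than at 72 h for Chek1, by 0.62 ± 0.12 (SE) on the log2 scale (adjusted p = 0.00017, edgeR), for Clspn by 0.58 ± 0.12 (adjusted p = 0.00024) and for Trp53 by 0.25 ± 0.071 (adjusted p = 0.0053), making 3 of 10 members against 31.5% of all genes, 18.5% in the higher direction. In the smaller experiment alone the differences were 0.39 for Chek1 (adjusted p = 0.087) and 0.43 for Clspn (adjusted p = 0.065). For Trp53 the larger experiment alone gave 0.12 (adjusted p = 0.31), B1-8-paired cells 0.18 (adjusted p = 0.061) and a fit with no experiment term 0.25 (adjusted p = 0.33).

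Among treated mice, the levels at 48 h were set against those at 72 h. Chek1 was higher at 48 h by 0.53 on the log2 scale (adjusted p = 1.0e-06, edgeR), Clspn by 0.52 (adjusted p = 8.4e-07), Trp53 by 0.23 (adjusted p = 0.00013) and Atrip by 0.23 (adjusted p = 0.022), and Mdm4 was lower, at -0.11 (adjusted p = 0.021). These 5 of 10 compare with 49.1% of all genes, 26.8% higher and 22.3% lower. By total UMIs Atrip did not pass (0.13, adjusted p = 0.20), and Atm (-0.14, adjusted p = 0.037) and Mdm2 (-0.19, adjusted p = 0.0034) were lower along with Mdm4, making 3 higher and 3 lower, against 17.9% and 34.4% of all genes. Within experiments, Trp53 had an adjusted p of 0.14 in the larger and 0.0016 in the smaller, Atrip of 0.13 and 0.35, and Mdm4 of 0.011 and 0.25. All 3 of these also missed the threshold in a fit with no term for the experiment.

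**Figure D2:**
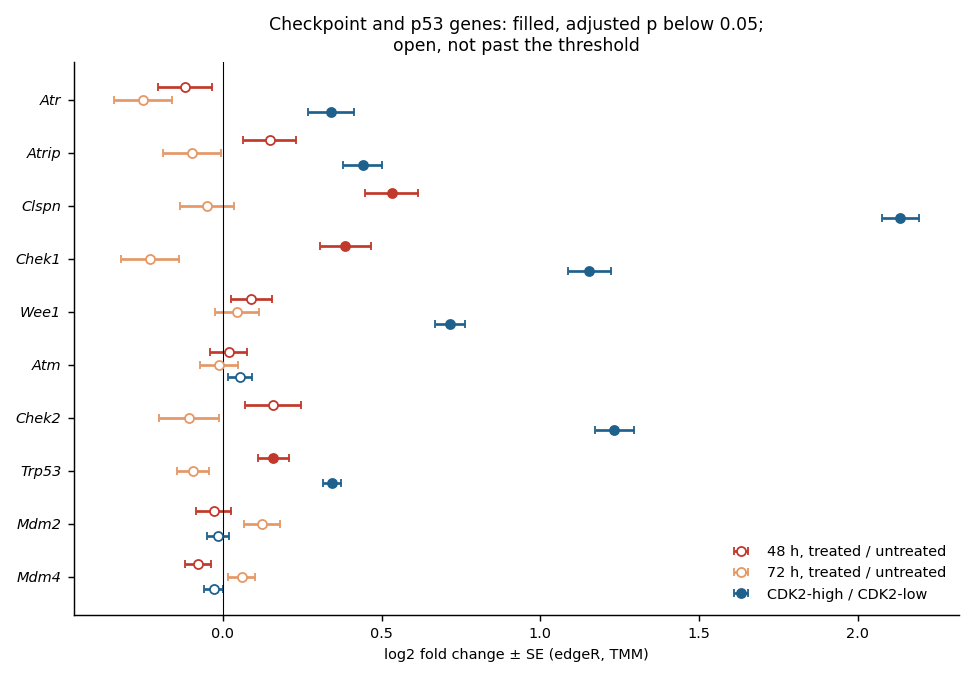
Log2 fold change with its standard error for each of the 10 members for treated against untreated mice at 48 h and at 72 h and for CDK2-high against CDK2-low cells, with genes on the y axis and filled points for adjusted p below 0.05. The values for Clspn reach 0.53 at 48 h and 2.13 in CDK2-high cells, and those for Mdm2 lie between -0.03 and 0.12.

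In untreated mice 1 member changed as the GC aged. From 0 h to 48 h, 0 of 10 passed the edgeR test, where 0.127% of all genes did, DESeq2 called 0, and 0 had an unadjusted p below 0.05. From 0 h to 72 h, 1 of 10 did, Atr, against 4.41% of all genes, 1.79% higher. Atr levels ran from 13.3 to 33.9 CPM (median 18.9) at 0 h and from 19.1 to 36.8 CPM (median 26.7) at 72 h in overlapping groups, a log2 fold change of 0.36 ± 0.084 (SE) with an adjusted p of 0.0069 (edgeR). It was 0.42 (adjusted p = 0.029) in the larger and 0.31 (adjusted p = 0.35) in the smaller experiment. In a fit with no term for the experiment Atr did not pass.

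CDK2-high and CDK2-low cells differed in more members, and by more, than the 48 h groups, and more of all genes were called too (75.1% against 47.4%). In CDK2-high cells 7 of 10 members were higher and 0 were lower, against 75.1% of the 10120 genes tested, 36.5% higher and 38.6% lower. The number called, 7 of 10, is thus close to the share of all genes called in either direction. Clspn, Chek2 and Chek1 had the largest log2 fold changes of the members, while Atm, Mdm2 and Mdm4 did not pass. Groups did not overlap for 4 of 10 members, Clspn, Chek1, Chek2 and Wee1, where 47.2% of all genes did not. The median log2 fold change of the members was 0.39, against -0.02 over all genes.

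Clspn had levels of 62.1 to 113 CPM (median 76.1) in CDK2-low and 298 to 323 CPM (median 311) in CDK2-high cells. Its ratio of high to low was 2.75 to 4.84 within the 7 mice, and the log2 fold change was 2.13 ± 0.059 (SE, adjusted p = 5.7e-21, edgeR with the mouse as a block). Every CDK2-high sample lay above every CDK2-low sample.

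Chek2, the effector kinase of ATM, ranged from 10.98 to 16.7 CPM (median 13.5) in CDK2-low and from 25.6 to 31.2 CPM (median 27.5) in CDK2-high cells, a log2 fold change of 1.23 ± 0.061 (SE, adjusted p = 1.2e-15, edgeR). Chek1 ranged from 18.6 to 30.3 CPM (median 21.5) and from 39.1 to 43.5 CPM (median 42.6), a log2 fold change of 1.15 ± 0.068 (SE, adjusted p = 4.3e-14). Both were higher in CDK2-high cells of 7 of 7 mice. Wee1, the brake on CDK1 and CDK2, ranged from 26.5 to 35.3 CPM (median 31.4) and from 41.6 to 47.9 CPM (median 44.3), a log2 fold change of 0.71 ± 0.046 (SE, adjusted p = 3.6e-13).

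Smaller differences that overlapped between groups were found for Atrip, with a log2 fold change of 0.44 (adjusted p = 5.0e-07, edgeR), Trp53, with 0.34 (adjusted p = 3.6e-11), and Atr, with 0.34 (adjusted p = 0.00017). In CPM they were higher in CDK2-high cells of 6, 7 and 5 of 7 mice. The log2 fold changes were 0.05 for Atm (adjusted p = 0.21), -0.01 for Mdm2 (adjusted p = 0.71) and -0.03 for Mdm4 (adjusted p = 0.40).

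These smaller values depend on the scaling. TMM factors centre the fold changes near 0, whereas scaling by total UMIs moved the median log2 fold change of all genes from -0.02 to -0.22 and the genes called from 3690 higher and 3906 lower to 2411 higher and 5822 lower. Relative to total UMIs, Atr no longer passed (0.14, adjusted p = 0.074), Trp53 remained higher at 0.15 (adjusted p = 4.3e-05), and Atm (-0.14, adjusted p = 0.0013), Mdm2 (-0.21, adjusted p = 6.7e-06) and Mdm4 (-0.22, adjusted p = 2.2e-07) were lower. The last 3 were lower in CPM in CDK2-high cells of all 7 mice. Clspn, Chek1, Chek2 and Wee1 kept log2 fold changes of 1.94, 0.96, 1.04 and 0.52 under that scaling. Total UMIs likewise gave 1888 genes higher and 3079 lower at 48 h, where TMM gave 2683 and 2160, 1832 and 3514 between 48 h and 72 h of treatment in place of 2738 and 2281, and 1258 and 2087 for the interaction in place of 1887 and 1330.

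**Figure D3:**
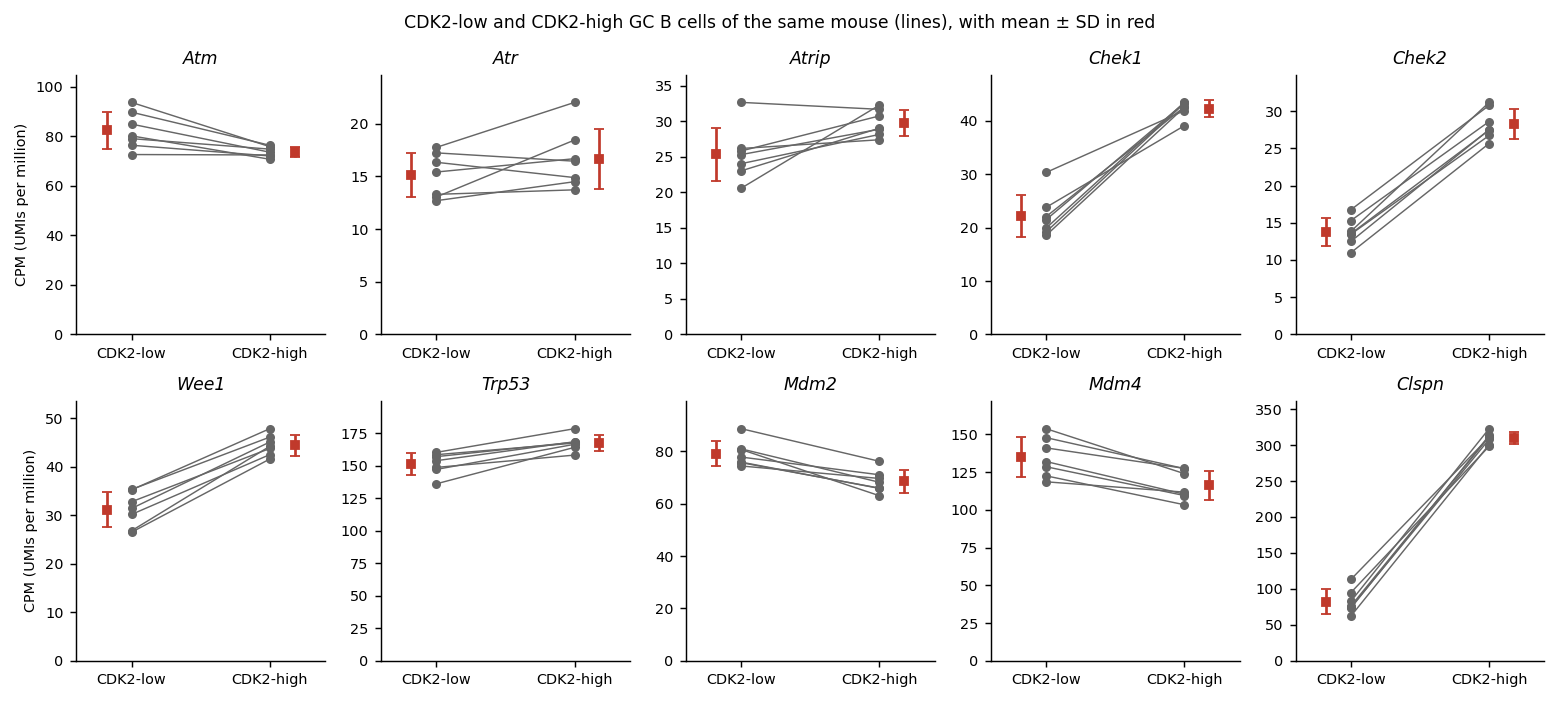
CPM of the 10 members in CDK2-low and CDK2-high GC B cells, 1 panel per gene and 1 line per mouse (7 mice), with mean and SD in red. Lines rise in all 7 mice for Clspn, Chek1, Chek2, Wee1 and Trp53 and fall in all 7 for Atm, Mdm2 and Mdm4.

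Each cell was placed in a G1, S or G2M class from its expression of 39 S and 52 G2M genes, with the members and their pathway lists left out of the scoring. The share of G1-class cells per mouse averaged 19.3% ± 3.14 (SD, n = 9) in treated mice at 48 h and 49.8% ± 5.39 (SD, n = 6) in untreated mice. It was 44.6% in treated and 46.7% in untreated mice at 72 h, and 8.63% in CDK2-high against 74.2% in CDK2-low cells. These classes are ranges of a score, and 4.38% of time-course cells and 4.45% of reporter cells lay within 0.05 of the limit of G1.

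The members differed in how far their levels followed the classes. At 0 h (n = 9 mice), Clspn averaged 8.35 CPM ± 4.67 (SD) in G1-class, 324 ± 39.3 in S-class and 173 ± 23.1 in G2M-class cells. Chek1 averaged 5.91 ± 1.56, 64.6 ± 6.42 and 20.5 ± 6.32 CPM in the same order, and so was also highest in S-class cells. Wee1 was at 18.6, 53.2 and 44.1 CPM, while Chek2 had its highest mean in the G2M class, 37.9 CPM against 24.7 CPM in the S class. Atm was highest in the S class, at 63.2, 90.6 and 54.3 CPM. Mdm4 ran the other way, with 137 CPM in G1-class, 104 in S-class and 134 in G2M-class cells, and so did Mdm2, at 83.6, 66.9 and 81.8 CPM. Trp53, at 174, 212 and 169 CPM, Atr, at 17.4, 20.9 and 22.8 CPM, and Atrip, at 21.8, 26.5 and 26.9 CPM, varied less than Clspn, Chek1, Wee1 and Chek2.

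Within a class, treated and untreated mice at 48 h differed in few members. Within the S class 0 of 10 passed the edgeR test (2 at an unadjusted p below 0.05), against 13.8% of all genes, and the log2 fold changes were 0.11 for Clspn (adjusted p = 0.24) and -0.02 for Chek1 (adjusted p = 0.91). Scaled by total UMIs, Wee1 passed there with -0.25 (adjusted p = 0.047). In the G1 class 1 of 10 passed, Mdm4, lower at -0.23 (adjusted p = 0.025), against 8.67% of all genes, and at -0.20 (adjusted p = 0.10) with classes scored on cells thinned to equal depth, which leaves out shallower cells. In the G2M class 1 of 10 passed, Atr, lower at -0.32 (adjusted p = 0.016), against 17.9% of all genes, with Clspn at 0.17 (adjusted p = 0.064). With classes from thinned cells Clspn was at 0.20 (adjusted p = 0.047). Log2 fold changes within G1 had wide errors, 0.62 ± 0.28 (SE) for Chek1 and 0.46 ± 0.26 for Clspn.

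At 72 h, treated and untreated mice differed in 0 of 10 members in each class by edgeR, where 8.58% of genes were called in G1, 5.16% in S and 3.49% in G2M. At an unadjusted p below 0.05 there were 4, 3 and 4 members in the 3 classes. The member with the smallest adjusted p was Chek1 in the G1 class (0.095), at a log2 fold change of -0.75.

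CDK2-high and CDK2-low cells of the same class still differed. In the S class Clspn averaged 409 CPM ± 6.14 (SD) in CDK2-high and 246 ± 22.4 in CDK2-low cells of 7 mice, a log2 fold change of 0.89 ± 0.040 (SE, adjusted p = 2.3e-22, edgeR). Also higher were Chek2 (0.32), Chek1 (0.31), Trp53 (0.29) and Atrip (0.23), and Mdm2 was lower (-0.31), so that 6 of 10 passed against 53.1% of all genes. Scaled by total UMIs, which moved the median of all genes to -0.18, Chek2 and Atrip no longer passed, and Atm, Atr, Wee1 and Mdm4 were lower along with Mdm2, where 44.9% of all genes were lower.

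In the G1 class 4 of 10 passed against 36% of all genes. Trp53 was higher, with 174 CPM ± 11.6 (SD) in CDK2-high and 143 ± 11.2 in CDK2-low cells and a log2 fold change of 0.39 (adjusted p = 1.6e-06, edgeR), and Chek1 was higher by 0.67 (adjusted p = 0.047). Mdm4 was lower, at -0.27 (adjusted p = 0.0026), as was Chek2, at -0.72 (adjusted p = 0.047), opposite to its direction over all cells. The calls for Chek1 and Chek2 rest on low levels. Chek2 averaged 5.41 CPM ± 3.54 (SD) in CDK2-high, with 0 in the lowest mouse, and 9.89 ± 2.16 in CDK2-low cells. Chek1 averaged 8.93 ± 2.97 and 5.90 ± 0.90 CPM. With classes from thinned cells Chek2 was at -0.39 (adjusted p = 0.24) and Clspn higher by 1.19 (adjusted p = 1.8e-06). Under scaling by total UMIs Chek1 did not pass (adjusted p = 0.091), and Mdm2 was lower, at -0.22 (adjusted p = 0.045).

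The G2M class could be compared in the 3 mice with at least 20 such cells in both populations. There 6 of 10 were higher against 23.1% of all genes called, with log2 fold changes of 1.88 for Clspn, 1.56 for Chek2, 1.05 for Wee1, 0.86 for Chek1, 0.74 for Atrip and 0.38 for Mdm4. The last 2 did not pass when scaled by total UMIs.

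**Figure D4:**
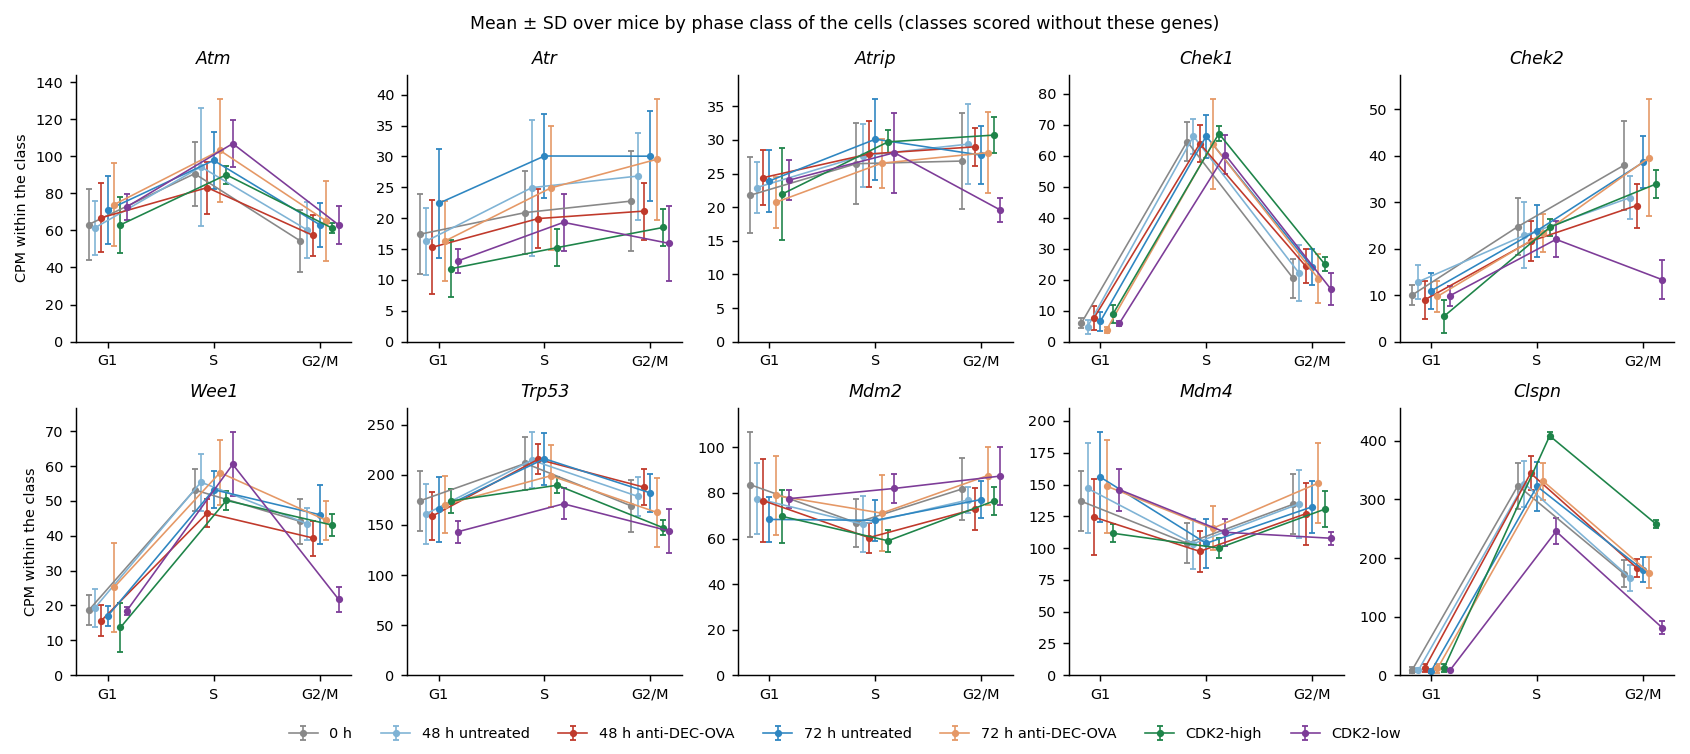
Mean CPM with SD over mice (y axis) of the members in G1-, S- and G2M-class cells (x axis) of each of the 7 groups. Clspn rises from 8.35 CPM in G1-class to 324 CPM in S-class cells at 0 h, and its S-class mean is 409 CPM in CDK2-high against 246 CPM in CDK2-low cells.

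Around the members, lists of the wider pathway were counted. Of the 22 sensors and mediators, proteins that detect single-stranded or broken DNA and carry the signal to the kinases, 17 were higher and 0 lower at 48 h, where 26.3% and 21.1% of all genes were, with a median log2 fold change of 0.23 against 0.01 over all genes. Tipin, a fork protection factor, averaged 176 CPM ± 15.6 (SD) in untreated and 258 ± 11.2 in treated mice, a log2 fold change of 0.63 (adjusted p = 1.4e-08, edgeR). Rpa2 and Rpa3, subunits of the protein that coats single-stranded DNA, rose by 0.57 and 0.51. Under scaling by total UMIs 10 of the 22 were higher and 1 was lower, against 18.5% and 30.1% of all genes. Between CDK2-high and CDK2-low cells 19 were higher and 1 lower, where 36.5% and 38.6% of all genes were. H2ax, the histone marked around breaks, was higher by 2.56 and Trp53bp1, which binds marked chromatin, lower at -0.51.

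The cell-cycle machinery on which the checkpoint acts was higher at 48 h in 12 of 12 genes, where 26.3% of all genes were, with a median of 0.57. By total UMIs 11 of the 12 were higher, against 18.5% of all genes. With TMM, the 12 included the mitotic kinase Plk1 (0.70), the mitotic cyclin Ccnb1 (0.66) and Rrm2, a ribonucleotide reductase subunit (0.74). At 72 h 0 of the 12 passed in edgeR, where 8.55% of all genes did, 0 in DESeq2 and 1 at an unadjusted p below 0.05. In CDK2-high cells all 12 were higher, against 36.5% of all genes, with a median of 2.44, and the 3 with the lowest adjusted p were Cdk1 (3.64), Ccna2 (3.59) and Rrm1 (2.15). Of the other kinases of the ATM family and their chaperones, 2 of 9 were higher and 1 lower at 48 h, near the 26.3% and 21.1% of all genes, with a median of 0.00. The chaperone ATPases Ruvbl2 (0.60) and Ruvbl1 (0.41) were higher and Smg1, a kinase of nonsense-mediated decay, was lower (-0.22), and by total UMIs 2 were higher and 3 lower at 48 h, against 18.5% and 30.1% of all genes. In CDK2-high cells Ruvbl1 and Ruvbl2 were higher and 3 genes lower, against 36.5% and 38.6% of all genes, the lower being Prkdc (-0.49), Smg1 (-0.35) and Tti2 (-0.37). By total UMIs 7 of 9 were lower there, against 57.5% of all genes.

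Of the 16 regulators of p53 tested, 6 were higher and 5 lower at 48 h, where 26.3% and 21.1% of all genes were. The co-repressor Trim28 was higher (0.37), as were Rpl5 (0.16) and Rpl11 (0.17), ribosomal proteins that can bind MDM2. Hipk2, a kinase of p53, was lower (-0.44), as were Cop1, a ubiquitin ligase (-0.24), and Bcl6 (-0.20), which fell from 272 CPM ± 24.2 (SD) in untreated to 225 ± 13.1 in treated mice. In CDK2-high cells 10 were higher, among them Rfwd3 (0.91), and 6 lower, among them Bcl6 (-0.49), Cop1 (-0.59) and Hipk2 (-0.42), where 36.5% and 38.6% of all genes were, while total UMIs gave 6 higher and 7 lower, against 23.8% and 57.5% of all genes.

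Of 27 tested genes that p53 is known to activate, 12 were lower and 3 higher at 48 h, where 21.1% and 26.3% of all genes were, with a median of -0.16. By total UMIs 14 were lower and 1 higher, against 30.1% and 18.5% of all genes. Btg2, an antiproliferative gene, was at 88.9 CPM ± 20.5 (SD) in untreated and 41.5 ± 3.51 in treated mice, a log2 fold change of -0.99 (adjusted p = 1.0e-10, edgeR). Ephx1, an epoxide hydrolase (-1.62), and Fbxw7, which selects proteins for degradation (-0.44), were also lower, whereas Rrm2b (0.26), Bax (0.15) and Pidd1 (0.25) were higher. In CDK2-high cells 5 of 26 were higher and 16 lower, where 36.5% and 38.6% of all genes were, with Pidd1 (1.15), Rrm2b (0.43) and Gadd45a (0.62) higher and Btg2 (-0.53), Fbxw7 (-0.51) and Ddit4 (-1.42) lower. At 72 h 1 of 27 was higher and 2 lower with treatment, where 8.55% of all genes were called. Of the 27, 10 had an unadjusted edgeR p below 0.05 at 72 h, and the median was -0.09. By the interaction term between the times, 1 of 27 was higher and 2 were lower, against 31.5% of all genes called.

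**Figure D5:**
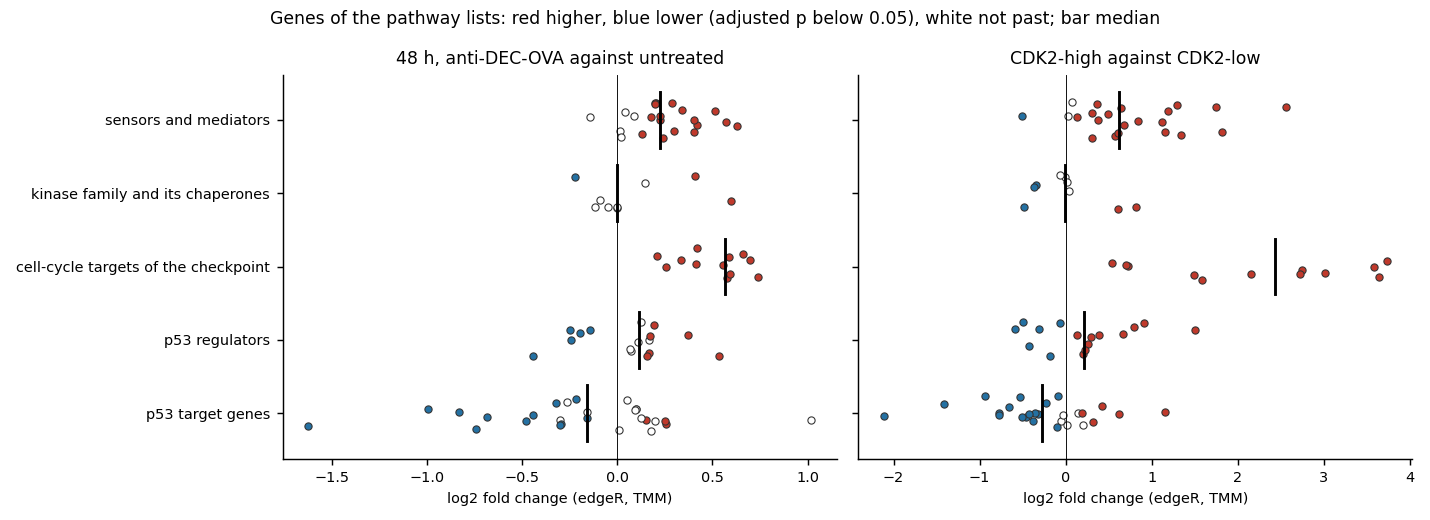
Log2 fold change of each tested gene of the 5 pathway lists at 48 h and in CDK2-high against CDK2-low cells, 1 point per gene (red higher, blue lower, white not past the threshold) and a bar for the list's median. The cell-cycle targets lie furthest above 0, with medians of 0.57 and 2.44, and the p53 target genes have medians of -0.16 and -0.28.

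Across the 39 mice of the time course, centred within each experiment, the genes most like each member were found by Pearson correlation of log2 CPM over 6808 genes. The mice share groups and libraries, so the values only describe this set. Clspn was closest to Pclaf (r = 0.963), Rrm2 (0.952) and Dek (0.944), and Chek1 to Hells (0.896), Chaf1a (0.893) and Cdc6 (0.880). Mdm4 was closest to Nisch (0.828), and the highest value of each of the other members lay between 0.634 for Atrip with Poldip2 and 0.742 for Chek2 with Samd1. Among the members themselves Chek1 and Clspn had the highest correlation (0.828) and Mdm4 and Clspn the lowest (-0.758).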

How the data were processed

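GC B cells were profiled by 10X Genomics 5′ single-cell RNA sequencing, with hashtag antibodies marking each mouse. The authors deposited raw UMI counts, for genes and for hashtags in each cell, from Cell Ranger on mm39 (version 8.0.1 in the file headers, 6.0.1 in the submitters' processing notes, which also name Seurat 5.1.0). Days 7, 9 and 10 were read as 0 h, 48 h and 72 h, and C and N as cytoplasmic and nuclear reporter. The pools of an earlier mCherry experiment were not used here.

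Cells were assigned to mice with HTODemux (Seurat 5.3.0, positive quantile 0.99), requiring exactly the hashtags of 1 mouse. Cells with hashtags of several mice (1526, 1837, 822 and 430 per pool) were left out as doublets, and doublets within a mouse were not searched for. Of 9 reporter mice listed, the 7 whose hashtags averaged at least 1 UMI per cell entered. Cells needed at least 200 genes and under 10% mitochondrial UMIs, leaving 13625 and 10073 cells of the time course and 7448 CDK2-high and 4385 CDK2-low cells. In the smaller experiment the mitochondrial limit took out 3114 among 13187 assigned cells, against 350 among 13976 in the larger. Median mitochondrial shares of the mice kept to 4.04% to 5.48% in the smaller and 2.17% to 2.53% in the larger experiment. The part of this gap in the differences between the experiments was not tested. Of the barcodes, 6 to 94 were shared between any 2 pools.

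Counts were summed per mouse and tested with edgeR 4.0.16 (quasi-likelihood F test, filterByExpr, TMM, R 4.3.3), with all 5 groups and the experiment as a term in the time course, and the mouse as a block for CDK2-high against CDK2-low. The block joins the 2 populations of the same animal, as named in the deposited list of mice. Adjusted p is Benjamini-Hochberg over all genes tested, with a threshold of 0.05, and fold changes are on edgeR's TMM scale. Each edgeR SE is the absolute log2 fold change divided by the square root of the test's F statistic. It was thus derived from the test and not estimated separately. CPM is UMIs per 1000000 UMIs of the mouse, without TMM, and carries no gene length, so levels were not compared between genes. Intervals from replicates include the spread between mice, and low counts limit Atr, Atrip and Chek2 most. Phase classes used Seurat's CellCycleScoring, and mice with under 20 cells of a class were left out. On simulated data (10136 genes, the design of the 48 h comparison), the test recovered 62.12% of genes changed 1.25-fold, 88.06% at 1.5-fold and 93.94% at 2-fold, and called 0.08051% of unchanged genes. There only 66, 67 and 66 genes were changed by these folds and 9937 were not, with no difference between experiments. In the data 47.4% of genes passed at 48 h, so these rates need not hold for the tests reported.

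The files list claspin as Clspn, and the other 9 symbols as written. Named list genes were the up to 3 with the lowest adjusted p in each direction at 48 h and in CDK2-high cells. The likeness of genes was ranked over genes with average log2 CPM of at least 4. The members and the lists were chosen with earlier results of these data known. Alternatives were DESeq2 1.42.0, RLE size factors, no filter on low counts or on cells, no experiment term, only the groups compared, each experiment alone, B1-8-paired cells only, the highest hashtag, phase classes scored on thinned cells (2871 or 5260 UMIs each, the tests using the full counts of those cells), each reporter mouse left out and no block. Total UMIs without TMM, and leaving out 1 mouse at 0 h, were added after seeing the data.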

Additional observations from a re-analysis of the deposited data

Results flagged for a closer look

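At 0 h the lowest mouse stood apart from the other 8 for 3 members. One mouse of the larger experiment, with 1984426 UMIs the fewest of the time course, was lowest for Clspn, at 92.2 CPM (183 UMIs) with the next mouse at 169 CPM, and for Chek1, at 17.1 CPM (34 UMIs) with the next at 31.2 CPM. Its share of G1-class cells, 66.3%, was the highest of the group. Without it, 0 and 1 members passed for untreated mice at 48 h and 72 h against 0 h, as with it. A mouse of the smaller experiment was lowest for Atrip, at 13.1 CPM (26 UMIs), with the next at 24.04 CPM. Among CDK2-high samples, replicate 6 was lowest for Chek1, at 39.1 CPM (222 UMIs), with the next at 41.9 CPM. In all, 4 of 70 groups of mice held such a value, and chance alone gives about 1 in 20.

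The effect of treatment differed between 48 h and 72 h, by the interaction term, for Chek1 (0.62 on the log2 scale), Clspn (0.58) and Trp53 (0.25). The call for Trp53 was lost in the larger experiment alone, in B1-8-paired cells and without the experiment term, and those for Chek1 and Clspn in the smaller experiment alone.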

How the results depend on the processing

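Of 184 counts of called members or genes under other settings, 155 stayed within 1.5 times. Of 1010 log2 fold changes of members, 951 kept their side of the threshold and, where past it, their direction, 27 gained a call, 31 lost one and 1 reversed, Atm in CDK2-high cells (-0.14 by total UMIs). In 58 of those over all cells the sign differed with the threshold passed in neither, and such changes within phase classes were not counted. The genes called for 48 h untreated against 0 h (13) were 25 with DESeq2, 21 without the low-count filter, 5 without the experiment term, 4 in B1-8-paired cells and 0 in the smaller experiment. Without the experiment term, genes called, of 10220 tested, fell to 2680 at 48 h (2 members), 217 at 72 h, 3104 for 48 h against 72 h treated (2 members), 77 for 72 h untreated against 0 h (0 members) and 1222 for the interaction (2 members). The smaller experiment alone, with fewer mice and 10334 genes tested, gave 2149, 22, 2661 (3 members), 3 (0 members) and 768 (1 member) in that order. For 48 h against 72 h treated, 3 members passed in the larger experiment alone (Chek1, Clspn and Mdm4) and 3 in B1-8-paired cells (Chek1, Clspn and Trp53). Of all genes, 19.6% were higher and 21.3% lower in the larger experiment, and 21.1% and 19.7% in B1-8-paired cells. For 72 h untreated against 0 h, 256 genes passed with only those groups fitted. For the interaction, 1984 genes passed in B1-8-paired cells, and 5 members both with no filter on cells and by total UMIs, Mdm2 and Mdm4 being lower. Of all genes, 17.9% were higher and 15.8% lower with no filter on cells, and 12.3% and 20.4% by total UMIs. With classes from thinned cells at 48 h, 0 members passed in G1, where 2.73% of genes were higher and 2.62% lower. In G2M 2 passed, where 9.26% and 7.63% of genes did. By total UMIs 1 passed in S, where 4.92% of genes were higher and 8.65% lower. The causes were not tested.

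The pairing of CDK2-high and CDK2-low samples comes from the same animal. Without that block 7 members and 7052 genes were called, and leaving out each mouse in turn gave 7 members each time and 7199 to 7566 genes. Depth limits the members of fewest UMIs, above all within phase classes.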
